A study of Homo sapiens with 288 samples.

Results

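The genes described here are 10 imprinted genes with known roles in growth and in the placenta, PEG10, PEG3, MEST, CDKN1C, PHLDA2, IGF2, DLK1, PLAGL1, GRB10 and SGCE. They were chosen by name, with earlier results of these data known, so shares set beside a background only describe the list. Of the 17492 protein-coding genes measured, 9 were members of this list, and PLAGL1 was not analysed here. The cells were made from H1 cells, a human embryonic stem cell line. Endothelial cells (EC) had received 5 ng/ml BMP4 with 25 ng/ml Activin A for 2 days and then VEGF and WNT for 3 days. Trophoblast-like cells (TB) had received 50 ng/ml BMP4 and SB431542, an inhibitor of Activin and Nodal receptors, in medium lacking FGF2. Stored full-length cDNA of 45 EC and 51 TB single cells was brought to an equal input for library preparation and sequenced in 3 experiments. Whether EQ-Vary pooled the same tagmented cDNA as EQ is not given in the sources used here, so its recurrence of a value need not be a separate preparation. EQ and EQ-75% used the same pooling volume for every cell and EQ-Vary used scaled volumes. By the labels and the methods, libraries with the same number come from the stored cDNA of the same cell. Of the 96 numbers, 5 gave near-empty libraries in EQ and EQ-Vary that passed in EQ-75%, and 2 did the reverse. Whether these 7 hold the same cell throughout was not tested, and they enter no comparison of EQ with EQ-75% over the same cells.

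In most mammalian genes both parental copies are used, whereas an imprinted gene is mainly expressed from the copy of 1 parent. Paternally expressed genes such as IGF2 tend to promote fetal and placental growth, and maternally expressed genes such as CDKN1C and PHLDA2 tend to restrain it. Several of these genes are abundant in the placenta. The counts used here add both parental copies, so no statement on imprinting itself can be made from them.

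Cells were kept by the limits of the study, a log10 total count of at least 5.4 and at most 31% of counts in the 50 most abundant genes. In EQ, EQ-Vary and EQ-75%, 38, 38 and 39 EC and 48, 46 and 50 TB passed, with total counts between 291354 and 6345138. Levels are counts per 1000000 counts of the library (CPM), and detection means a rounded count of 1 or more. No separate cultures are named, so a cell type in an experiment is 1 sample, no p-value is given, and every SD is the spread between cells. Summed over 12 endothelial markers, EC of EQ held 494 to 9461 CPM and TB 3.43 to 98.2 CPM. Summed over 12 trophoblast markers, TB held 2394 to 12220 CPM and EC 113 to 3962 CPM. KRT18, KRT8 and VTCN1 had the highest means in TB, at 1926, 1259 and 1142 CPM. GATA2 leaned the other way, with 65.7 CPM in EC and 38.2 CPM in TB. CDX2 was detected in 1 and TP63 in 5 of the 48 TB. Mesoderm and mesenchyme markers also moved with the cell type, with 0.501 to 445 CPM in EC and 179 to 3092 CPM in TB over the 6 of 7 listed genes measured, and so did 2 amnion markers, with medians of 0.780 and 126 CPM. MIXL1 was at 0 in every passing cell of both types, and the collagen genes COL1A1 and COL3A1 averaged 280 and 735 CPM in TB against 21.8 and 2.41 CPM in EC, whereas PDGFRA averaged 7.28 CPM in TB and 11.8 CPM in EC. Pluripotency markers had a median sum of 413 CPM in both types, and hormone-producing trophoblast markers 1.47 CPM in EC and 3.12 CPM in TB. The hormone-producing sums reached 49.95 CPM in EC and 1391 CPM in TB. Of these genes, HSD3B1 averaged 1.34 CPM in EC, detected in 9 of 38, and 81.2 CPM in TB, detected in 26 of 48. CGA averaged 1.44 CPM in EC and 2.93 CPM in TB. The part of these other markers in the levels below was not tested.

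TB held more of these transcripts than EC. The summed CPM of the 9 genes in a cell of EQ ran from 3.34 to 938 with a median of 202 in EC, and from 470 to 3196 with a median of 1255 in TB. MEST alone made up 40.8% of the mean sum in EC and 39.98% in TB. A gene was called higher when its mean CPM was at least 4-fold that of the other cell type and reached 1 CPM. By this rule 4 of the 9 genes, IGF2, PEG10, PEG3 and MEST, were higher in TB in EQ, where 16% of all 12751 genes tested were. PHLDA2 and DLK1 were higher in EC, a direction that held for 10.8% of all genes. CDKN1C, SGCE and GRB10 passed in neither direction. The median log2 ratio of TB over EC was 1.56 over the 9 genes and 0.0688 over all genes tested. The same 4 genes passed in TB in EQ-Vary, where 15.8% of all genes did, and in EQ-75%, where 16.4% did. In EC, PHLDA2 passed in the other experiments as well, with backgrounds of 10.9% in EQ-Vary and 10.2% in EQ-75%, while DLK1 did not. In a rule on the cells rather than the means, the interquartile ranges of IGF2, PEG10, PEG3 and MEST lay apart with TB above EC in EQ, as did those of 5.41% of all genes. In EQ-Vary the ranges of PEG10 overlapped. No member had its ranges apart in the other direction, which held for 3.48% of all genes.

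**Figure D1:**
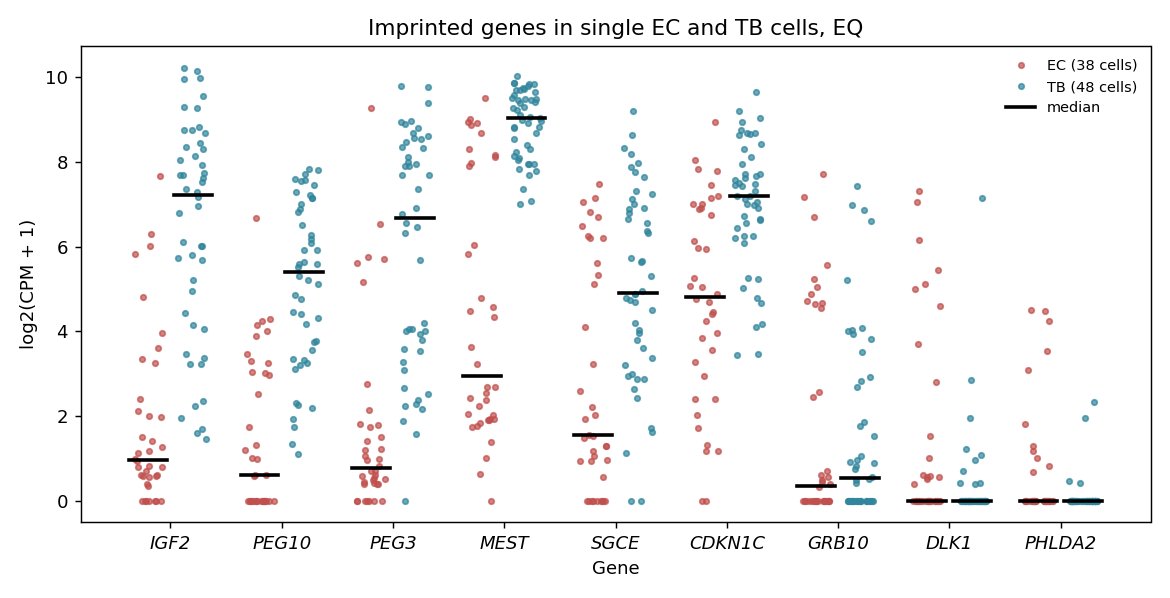
Level of 9 imprinted genes in each passing cell of EQ. The vertical axis is log2(CPM + 1), each point is 1 cell (38 EC and 48 TB) and black bars are medians. MEST is over 100 CPM in all 48 TB and splits the EC, and DLK1 in TB rests on 1 cell.

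IGF2 (chr11:2129112-2158391, minus strand, GRCh38), which encodes insulin-like growth factor 2, a growth factor of the fetus and placenta, differed most between the cell types among the genes higher in TB. Its lowest, median and highest CPM were 0, 0.942 and 202 in EC and 1.72, 149 and 1201 in TB. In EC 33 of 38 cells lay under 20 CPM, and 24 of the 38 lay under every TB cell, while 20 of the 48 TB cells lay above every EC. The mean was 13.1 ± 36.3 CPM (SD, n = 38 cells) in EC and 252 ± 315 CPM (SD, n = 48 cells) in TB, a 19.2-fold difference. A single cell, EC 38, carried 40.4% of all IGF2 in EC, and without the highest cell of each type the ratio was 28.8. IGF2 was detected in 31 of 38 EC (81.6%, exact 95% binomial interval 65.7 to 92.3%) and in all 48 TB. Only 13 EC had 5 or more counts.

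PEG10 (chr7:94656325-94669695, plus strand) is a domesticated retrotransposon gene needed for placental development. Its lowest, median and highest CPM were 0, 0.521 and 102 in EC and 1.16, 41.6 and 227 in TB. It was detected in every TB of EQ and in 21 of 38 EC, and 22 EC lay under every TB cell. The mean was 6.47 ± 16.9 CPM in EC and 68.7 ± 70.6 CPM in TB, a 10.6-fold difference. The EC mean leaned on EC 43, which held 102 CPM against 18.5 CPM in the next cell. EC 43 ranked second of 38 EC for the summed trophoblast markers, with 1715 CPM against a median of 495 CPM, and 36th for the endothelial markers, with 2334 CPM against 5278 CPM. Without the highest cell of each type the ratio was 16.7.

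SGCE (chr7:94524204-94656572, minus strand), which encodes epsilon-sarcoglycan of a membrane complex of muscle and other cells, lies head to head with PEG10, and the annotated ends overlap. Its lowest, median and highest CPM were 0, 1.91 and 179 in EC and 0, 29.2 and 588 in TB, so the cell types overlapped widely. The means were 30.3 ± 48.5 and 89.3 ± 121 CPM, a ratio of 2.95. The ratio of means was under the 4-fold limit, and that of medians plus 1 CPM was 10.4. Of its nonzero expected counts in EQ, 83.8% were not whole numbers, the highest share among the 9 genes. This means that some of its reads were split with other genes and its level is uncertain. The share was also 66.3% for MEST, 65.6% for CDKN1C and 51.7% for IGF2. It does not measure how many reads were split. Reads from the overlap with PEG10 cannot be told apart by strand, since the library kit does not mark it. The 2 neighbours did not follow each other closely from cell to cell, with a Spearman correlation of 0.152 over EC and 0.116 over TB in EQ and -0.132 and 0.183 in EQ-75%.

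PEG3 (chr19:56810077-56840728, minus strand), which encodes a zinc finger protein, was the member with the most uneven distribution in EC. EC 5 held 619 CPM in EQ, the next cell 91.2 CPM and the median cell 0.701 CPM. That single cell carried 66.7% of the PEG3 of all EC, and it carried 70.1% in EQ-Vary, where it held 620 CPM, and 69.8% in EQ-75%, where it held 549 CPM. The high value thus recurred in all 3 experiments. EC 5 also ranked second among EC for DLK1, with 131 CPM, and for SGCE, with 140 CPM. Its endothelial markers summed to 5426 CPM, close to the median of 5278 CPM, and its trophoblast markers to 1265 CPM, the seventh highest of 38.

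In TB the PEG3 levels had a lowest, median and highest value of 0, 101 and 886 CPM. They fell into a low and a high range, with 20 of 48 cells under 20 CPM, 4 between 20 and 100 CPM and 24 over 100 CPM. The mean was 24.4 ± 101 CPM in EC and 197 ± 229 CPM in TB, an 8.05-fold difference that became 21.7-fold without the highest cell of each type. For its mean level PEG3 had a coefficient of variation (CV, SD over mean) at the 96.9th percentile of all genes in EC and the 91.7th in TB. By the variance of log2 CPM over its trend it was not above the genes at its level in EC.

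MEST (chr7:130486171-130506465, plus strand), which encodes an alpha/beta-hydrolase-fold protein of mesoderm and placenta, was the most abundant of the 9 genes and behaved differently in the 2 cell types. In TB all 48 cells were over 100 CPM, with a lowest, median and highest value of 129, 529 and 1054 CPM and a CV of 0.476. In EC the values were 0, 6.87 and 725 CPM with a CV of 1.58. There 22 cells lay under 20 CPM, 5 between 20 and 100 CPM and 11 over 100 CPM. No EC of EQ lay between 64.7 and 238 CPM. The 11 high cells overlapped the TB range, and 27 EC lay under every TB cell. The means were 125 ± 198 CPM in EC and 546 ± 260 CPM in TB, a ratio of 4.36. The ratio was 3.89 with TMM library sizes and 3.58 with DESeq2 size factors, both under the 4-fold limit, and 67.3 with medians plus 1 CPM.

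The gap in MEST recurred in each experiment. Over the 37 EC that passed in all 3 experiments, 10 cells were over 100 CPM in every experiment, 22 were under 20 CPM in every experiment, and 0 were over 100 CPM in only some of them. The empty range lay between 55.6 and 224 CPM in EQ-Vary and between 84.9 and 244 CPM in EQ-75%. MEST did not follow the marker lists strongly over EC, with a Spearman correlation of -0.183 with the summed endothelial markers and 0.182 with the trophoblast markers. In EQ-75%, 1 TB cell, TB 48, held only 7.36 CPM. Its libraries had failed the limits in EQ and EQ-Vary with total counts of 8575 and 7796, so its MEST level could not be compared with a passing library.

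**Figure D2:**
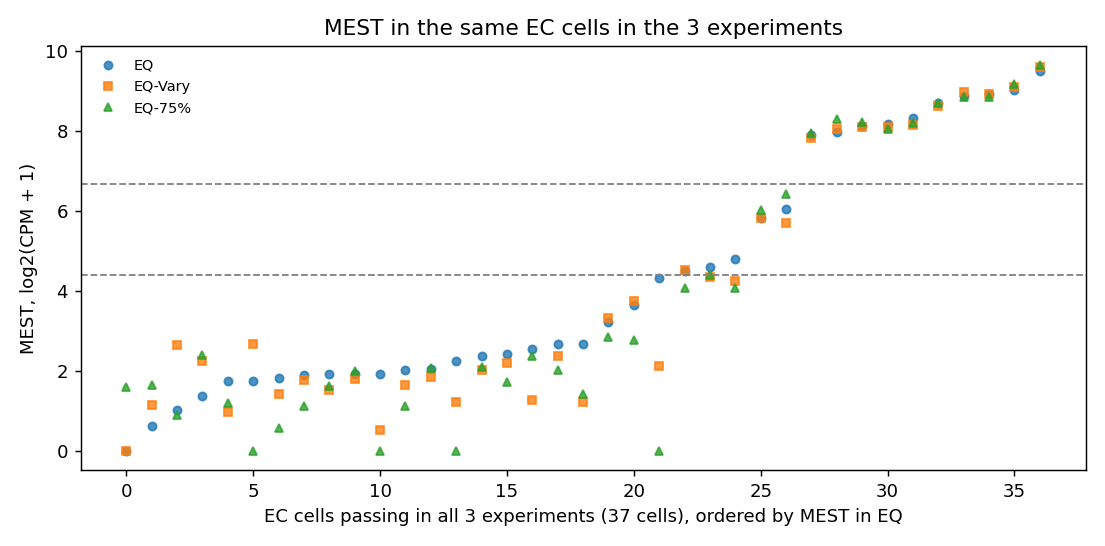
MEST in the 37 EC that passed in all 3 experiments, ordered by their level in EQ. The vertical axis is log2(CPM + 1), marker shapes are experiments and dashed lines are at 20 and 100 CPM. The same 10 cells are high in each experiment, and no cell moves across the gap.

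MEST transcripts start at several promoters, and gene counts do not separate them. The RefSeq promoter windows of MEST, GRB10 and PLAGL1 were available for GRCh38.p14, from 250 bases before to 50 bases after each start. A pair of the 5 MEST windows on the plus strand of chromosome 7 is shown because MEST carries the largest share of the signal. They are those with the fewest and the most CpG pairs, the site of the methylation that marks imprinted promoters. Capitals mark every CG pair, a letter pair that reads the same on both strands.

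MEST upstream start, chr7:130485925-130486224: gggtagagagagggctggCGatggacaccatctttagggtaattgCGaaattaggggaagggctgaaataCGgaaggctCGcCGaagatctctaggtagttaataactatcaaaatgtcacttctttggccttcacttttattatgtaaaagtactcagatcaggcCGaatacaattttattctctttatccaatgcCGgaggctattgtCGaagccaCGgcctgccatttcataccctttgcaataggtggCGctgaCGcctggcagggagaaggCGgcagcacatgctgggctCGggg

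MEST internal start, chr7:130491835-130492134: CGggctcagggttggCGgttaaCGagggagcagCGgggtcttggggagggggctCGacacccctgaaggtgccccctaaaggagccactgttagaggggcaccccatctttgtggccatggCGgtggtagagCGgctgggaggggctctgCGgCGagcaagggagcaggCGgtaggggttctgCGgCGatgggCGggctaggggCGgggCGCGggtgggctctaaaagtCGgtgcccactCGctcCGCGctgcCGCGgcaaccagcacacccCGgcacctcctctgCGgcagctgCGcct

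The upstream window held 13 CG pairs in 300 bases and the internal window 25. The other MEST windows held 22, 16 and 22, with no order from upstream to internal. At least 13 pairs were found in 51.7% and at least 25 in 32.03% of the 35116 windows of all genes, whose median was 14. The CG content is a description of these letters, and methylation was not measured.

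CDKN1C (chr11:2883213-2885775, minus strand), which encodes the cyclin-dependent kinase inhibitor p57, a brake on the cell cycle that is expressed from the maternal copy, was widespread in both cell types. Its lowest, median and highest CPM were 0, 27.3 and 495 in EC and 9.88, 145 and 808 in TB. It was detected in 36 of 38 EC and in all 48 TB, and only 11 EC lay under every TB cell. The means were 73.0 ± 101 and 197 ± 173 CPM, a ratio of 2.69. Over cells, CDKN1C had weak negative correlations with the summed CPM of 10 genes of the G2 and M phases, with a Spearman value of -0.169 in EC and -0.0997 in TB. These were not particular to CDKN1C. The other members ran from -0.251 (MEST) to 0.272 (PEG10) in EC and from -0.276 (SGCE) to 0.205 (PEG10) in TB. Of the other CDK inhibitors with a row, CDKN2D was 8.28-fold higher in EC, with means of 15.4 ± 36.8 and 1.86 ± 12.4 CPM. CDKN1B, which encodes p27, averaged 8.10 and 9.14 CPM.

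PHLDA2 (chr11:2928273-2929420, minus strand), a maternally expressed gene that limits placental growth in mice, lies close to CDKN1C but had a low level in both cell types and leaned the other way. It was detected in 11 of 38 EC (28.9%, interval 15.4 to 45.9%) and in 4 of 48 TB (8.33%, interval 2.32 to 19.98%). The highest cell held 21.6 CPM in EC and 4.03 CPM in TB, and the median was 0 in both. The means were 2.28 ± 5.76 and 0.159 ± 0.708 CPM, a ratio of 14.4 towards EC. In all, TB 27 and TB 16 carried 90.7% of the PHLDA2 of TB, and the TB of EQ held 24 counts of PHLDA2 against 131 in EC. EC 4 and EC 27 carried 49.7% of the PHLDA2 of EC, where 5 of 38 cells had 5 or more counts. Over the pooled counts of all cells the level was 1.67 CPM (exact 95% Poisson interval 1.40 to 1.98) in EC and 0.248 CPM (0.159 to 0.370) in TB. The ratio of these pooled levels was 6.73 towards EC, smaller than that of the means. The related gene PHLDA1 was far more abundant, with means of 425 and 172 CPM.

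DLK1 (chr14:100725705-100738224, plus strand), a Notch-related transmembrane protein that inhibits adipocyte differentiation, was seen in few cells. It was detected in 17 of 38 EC (44.7%) and 10 of 48 TB (20.8%), and the highest cell held 158 CPM in EC and 141 CPM in TB. The means were 13.5 ± 34.8 and 3.24 ± 20.4 CPM, 4.17-fold higher in EC. EC 24 and EC 5 together carried 56.3% of the DLK1 of EC. In TB, TB 19 carried 90.9%, and the next TB cell held 6.26 CPM. Without the highest cell of each type the means were 9.60 and 0.300 CPM, a ratio of 31.98, so 1 TB cell decided the size of the difference. TB 19 was a TB by its markers, with 7996 CPM of trophoblast and 12.6 CPM of endothelial markers, and it held 139 CPM of DLK1 in EQ-Vary and 111 CPM in EQ-75%. The ratio was 3.68 in EQ-Vary and 3.11 in EQ-75%, both under the 4-fold limit. Of the Notch receptors, NOTCH4 was 21.9-fold and NOTCH1 4.39-fold higher in EC, and NOTCH2 was 5.89-fold higher in TB. NOTCH1 lost its call in EQ-75%.

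GRB10 (chr7:50590063-50793462, minus strand), an adaptor that restrains insulin and IGF1 receptor signalling, did not separate the cell types. Its lowest, median and highest CPM were 0, 0.278 and 210 in EC and 0, 0.448 and 173 in TB, and it was detected in 20 of 38 EC and 27 of 48 TB. The means were 18.6 ± 43.3 and 13.8 ± 36.4 CPM, a ratio of 0.745 that turned to 1.13 with medians plus 1 CPM in place of means. A few cells held most of it, with EC 3 and EC 36 at 49.8% of the EC total and TB 49 and TB 17 at 45.01% of the TB total. Of its relatives, GRB14 averaged 31.5 and 19.2 CPM, and GRB7 was detected in 1 EC and in 33.3% of TB, with means of 0.0245 and 9.91 CPM.

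**Figure D3:**
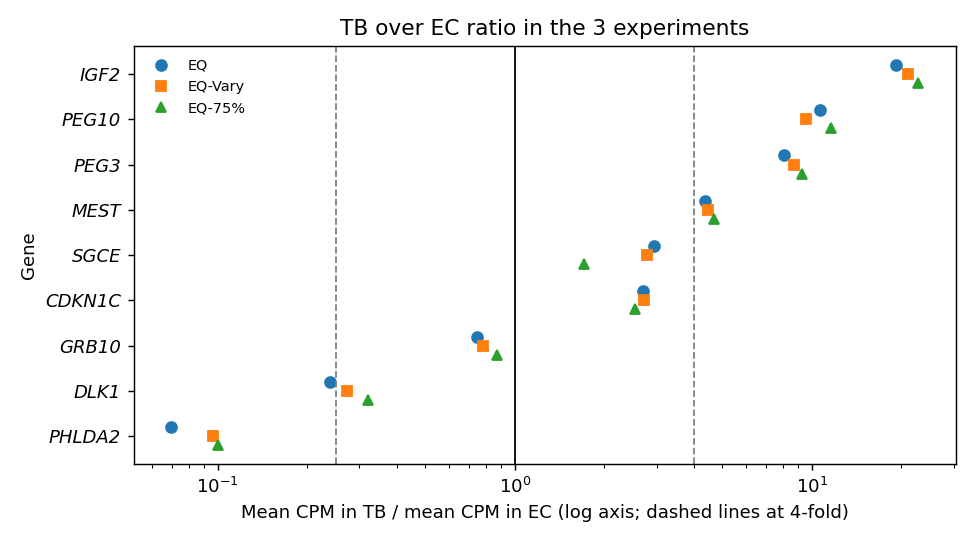
Ratio of the mean CPM in TB to that in EC for 9 imprinted genes in the 3 experiments, on a log axis with dashed lines at 4-fold. The ratio of IGF2 is 19.2 in EQ, DLK1 crosses the limit between experiments, and SGCE moves in EQ-75%. There 1 EC library holds 624 CPM of SGCE, and the EC mean is 51.8 CPM with it and 36.8 CPM without it.

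Compared per length, MEST also led. With CPM divided by the longest coding transcript and rescaled to a total of 1000000 per cell, the mean levels in TB were 525 ± 250 for MEST, 253 ± 224 for CDKN1C, 112 ± 138 for IGF2, 65.3 ± 89.8 for SGCE, 57.4 ± 67.0 for PEG3 and 25.5 ± 25.2 for PEG10. GRB10 followed with 6.52 ± 17.0, DLK1 with 1.71 ± 10.8 and PHLDA2 with 0.411 ± 1.89. Of the neighbours in this order, only MEST and CDKN1C differed by more than the SD of each. In EC the order began with MEST at 132 ± 215, CDKN1C at 105 ± 142 and SGCE at 23.4 ± 36.6, and no pair of neighbours differed by more than its SDs. RSEM used its own isoform estimates, so these lengths are an approximation.

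Detection of the low genes fell with depth. After thinning each library to 1000000 counts, which left out 4 EC and 4 TB of EQ, PEG3 was detected in 67.6% of EC (81.6% unthinned) and IGF2 in 64.7% (81.6% unthinned), against 97.7% and 100% of TB. PHLDA2 was detected in 23.5% of EC and 6.82% of TB, and DLK1 in 41.2% and 18.2%. Cells in which PEG3 or IGF2 was seen in EQ but not in EQ-75% numbered 15 and 11 among 37 EC, with at most 5 and 6 counts in EQ. Across the same cells log2(CPM + 1) had Pearson correlations between experiments that ran from 0.904 for PHLDA2 in TB to 0.995 for CDKN1C in TB, both for EQ against EQ-Vary. Spearman correlations were as low as 0.493 for DLK1 in TB (EQ-75%) and 0.495 for PEG3 in EC (EQ-Vary), genes with a few high cells and many cells at or near 0. These correlations share the cDNA of the cell.

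Levels in EQ-75% were lower than in EQ for some of the genes in the same cells. A gene was called lower when its mean CPM over the same passing cells was at most 0.8 of that in EQ. In EC this held for 4 of the 9 genes, DLK1 at 0.575, PHLDA2 at 0.669, PEG10 at 0.743 and IGF2 at 0.782, where the background was 14.8% of genes. In TB it held for 3 of the 8 genes that reached 1 CPM, PEG10 at 0.767, DLK1 at 0.785 and CDKN1C at 0.798, where the background was 7.76%. In EQ-Vary 0 genes met the rule in either type, with backgrounds of 1.35% in EC and 0.9% in TB. For EQ-75% the median ratio over all genes was 0.959 (EC) and 0.978 (TB).

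Among TB with at least 10 counts in either library, CDKN1C was lower in EQ-75% in 43 of 46 cells, with a median ratio within cells of 0.811 ± 0.138 (SD). IGF2 was lower in 36 of 42 TB, with a median ratio of 0.822 ± 0.165, and PEG10 in 32 of 40 TB, with 0.750 ± 0.271. MEST was lower in 16 and higher in 31 of 47 TB, at a ratio of means of 1.05. Single cells decided several of these calls. TB 40 held 224 CPM in EQ, from 82 counts in a library of 365570, and 21.4 CPM in EQ-75%. Without TB 40 the PEG10 ratio was 0.817, over the limit. Without TB 42 the CDKN1C ratio in TB was 0.801 and without EC 38 the IGF2 ratio in EC was 0.867, both also over it. Without EC 5 the PEG3 ratio in EC was 0.770, under it. DLK1 stayed under the limit in TB without TB 19, at 0.784, but its level there was then below 1 CPM.

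The GC content of the transcripts moved with this shift. Over all genes the Spearman correlation of the EQ-75% ratio with the GC content of the longest coding transcript was -0.647 in EC (11324 genes) and -0.636 in TB (11713 genes), against -0.121 and -0.0759 for EQ-Vary. Genes share the libraries, so these values are descriptions. In 5 groups of genes by GC content, the median ratio went from 1.09 in the lowest group to 0.822 in the highest in EC, and from 1.09 to 0.883 in TB. The members with the highest GC content were CDKN1C (63.8%), PHLDA2 (62.8%) and IGF2 (60.5%), and SGCE, with the lowest (39.7%), had ratios of 1.16 and 1.07. In the highest GC group 43.3% of genes in EC and 22.7% in TB met the rule. PEG10 stood apart from this order, with a GC content of 44.8% and a group in which 6.49% of genes in EC and 4.01% in TB met the rule. DLK1, with a GC content of 55.1%, had ratios of 0.575 in EC and 0.785 in TB against group medians of 0.892 and 0.927. The part of GC content in the shift of each gene was not tested.

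**Figure D4:**
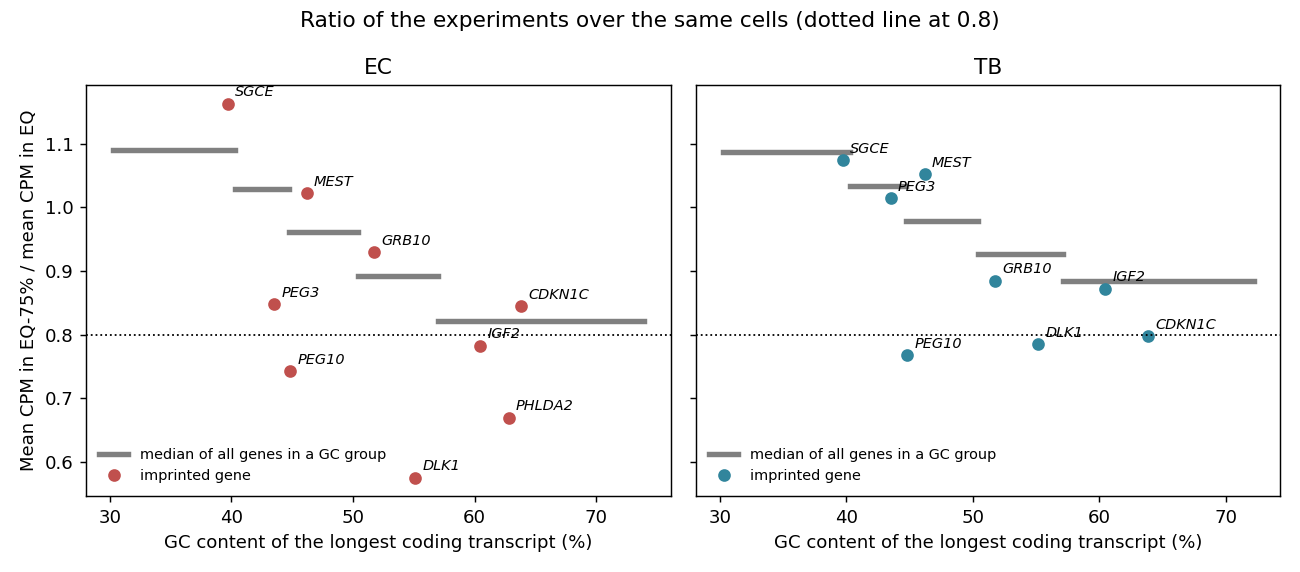
Ratio of mean CPM in EQ-75% to EQ over the same cells against the GC content of the longest coding transcript, for EC (left) and TB (right). Points are imprinted genes with at least 1 CPM in EQ, grey bars are medians of all genes in 5 GC groups, and the dotted line is at 0.8. PEG10, DLK1, PEG3 and IGF2 lie under the bars in both types, PEG3 and IGF2 only slightly so in TB.

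The 9 genes did not vary together as a group from cell to cell. Over the 7 genes detected in at least 50% of cells, the 21 Spearman correlations ran from -0.159 to 0.331 with a median of 0.0970 in EC and from -0.353 to 0.193 with a median of -0.0349 in TB. The largest in EC was CDKN1C with IGF2, 2 genes of the same chromosome 11 region, at 0.331 (0.407 for EQ-Vary, 0.277 for EQ-75%). The strongest in TB was PEG10 with MEST at -0.353 (-0.309 for EQ-Vary, -0.185 for EQ-75%). All points share a depth scale and are 38 or 48 cells. The genes most like each member over cells were H3F3B for CDKN1C in TB (0.611 in EQ and 0.596 in EQ-75%), HMGN2 for PEG10 (0.528 and 0.495), RAMP1 for SGCE (0.549 and 0.302), POU2F1 for MEST (0.503 and 0.454), ZMYM2 and ADAMTS1 for PEG3 (both 0.481 in EQ), RAB4A for IGF2 (0.455 and 0.405) and, in EC, DCTPP1 for GRB10 (0.598 and 0.429). They were the highest of 8901 genes compared in TB and 8337 in EC.

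Of 40 other imprinted genes with a row, 26 were tested, 3 were at least 4-fold higher in TB and 2 in EC, beside 16% and 10.8% of all genes tested, the background for every list below. DLX5, a homeobox factor, averaged 10.1 CPM in TB and was detected in 1 EC. FAM50B averaged 5.71 CPM in TB and was detected in 0 of 38 EC, which allows a share of up to 7.89% of cells with a count and does not limit the share that express it. OSBPL5, a lipid transfer protein, was 8.02-fold higher in TB, ZNF597 was 5.64-fold higher in EC and KCNQ1, a potassium channel, averaged 1.27 and 0.0907 CPM, a call lost in EQ-75%. The abundant imprinted genes SNRPN and GNAS were close between the types, with ratios of 1.46 and 1.54. Of the 9 tested genes of the IGF axis, only IRS1, a docking protein of the insulin and IGF1 receptors, passed, with 49.3 ± 58.3 CPM in TB and 0.382 ± 0.643 CPM in EC. The receptor genes IGF1R and IGF2R had ratios of 0.913 and 0.638.

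Of 3 tested CDK inhibitors 0 passed in TB and 1 in EC. CDKN2B, with 0.915 CPM in TB and 0.00809 CPM in EC, was under the 1 CPM limit in EQ. It passed in TB in EQ-Vary and EQ-75%. Of 5 tested retrotransposon-derived genes, PEG10 passed in TB and ARC in EC, where it averaged 1.45 CPM and was detected in 1 TB. Of 3 tested sarcoglycan complex genes 0 passed in either direction. Of 5 tested PLAG and PHLDA paralogs PHLDA2 passed in EC, and PLAG1, the relative of PLAGL1, averaged 13.8 and 40.4 CPM. The GRB7 family had 1 of 3 in TB, and the DLK and Notch list had 1 of 6 in TB and 3 of 6 in EC. Of 3 tested genes of imprint maintenance DPPA3 passed in EC, with means of 4.82 ± 20.2 and 0.442 ± 1.06 CPM.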

How the data were processed

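The deposited values were expected counts of 17492 protein-coding genes per library. Before deposit, the authors cut all reads to 51 bases, aligned these with Bowtie 1.2.3 to Ensembl protein-coding genes (GRCh38, at most 2 mismatches) and obtained the expected counts from RSEM 1.2.31. The deposited tables are not normalized. CASAVA 1.8.2 is also named in the submitters' processing notes. In an earlier experiment on the same cDNA, the authors had removed cells whose images showed doublets.

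Counts were rounded and scaled to CPM with Python 3.11.15, pandas 2.3.3, numpy 2.4.6 and scipy 1.17.1. Alternative scalings used edgeR 4.0.16 (TMM), DESeq2 1.42.0 (poscounts) and scran 1.30.0 in R 4.3.3. Cell types, experiments and cell numbers came from the labels. Coordinates and GC content were from GENCODE v44. Genes were ranked for spread in 20 groups of mean CPM. Intervals cover counting error only. In simulated data for EC against TB in EQ, 100% of genes changed 8-fold and 0% of unchanged genes were called (11554 genes). In the measured cells of EQ the CV of the members ran from 1.38 to 4.13 in EC and from 0.476 to 6.29 in TB. The share of unchanged genes called at such a spread was not tested. Named from the lists were genes at least 4-fold higher in 1 type, at most 4 a direction, and for each member the genes of highest correlation. CDKN1B, PHLDA1, PLAG1, GRB14, SNRPN, GNAS, IGF1R and IGF2R were named after their values were seen. The members and all lists were chosen with earlier results of these data known.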

Additional observations from a re-analysis of the deposited data

How the results depend on the processing

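No paired analysis was possible because EC and TB are different cells, so their numbers pair nothing, and no test was run. EQ and EQ-75% were compared within cells, as values without a test. Of 193 alternative values, 182 moved by less than the spread between cells or kept a count within 1.5 times, 11 moved further and 0 turned a called direction. For the ratios of TB over EC that spread was 0.908 (PHLDA2) to 2.49 (SGCE) log2 units, a wide limit. The SGCE ratio of 10.4 with medians plus 1 CPM, against 2.95, did not count as moved. Nor did the loss of MEST under TMM or DESeq2, so the 182 are no measure of robustness. The 4 genes called in TB remained 4 in most settings, with 3 under TMM library sizes, DESeq2 size factors or a fold of 8, and 6 with medians plus 1 CPM or a fold of 2. The count of genes called in EC, 2 in EQ, was 0 with medians plus 1 CPM and 1 in EQ-Vary, in EQ-75%, with a minimum mean of 10 CPM and with a fold of 8. The medians of PHLDA2 and DLK1 are 0 in both cell types, and PHLDA2 averages under 10 CPM. DESeq2 size factors set the median log2 ratio of all genes to -0.18, against 0.0688 for CPM. The log2 ratio of GRB10 ran from -0.85 to 0.18 over 12 alternatives, so its direction is not settled. The alternatives on single cells in EQ-75% were added after the data were seen. Depth limits the detection of genes near 1 CPM.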

Other observations

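EC 1, EC 14, TB 4, TB 28 and TB 48 had 5643 to 45821 counts in their EQ and EQ-Vary libraries and 999525 to 1847419 in EQ-75%, where they passed. EC 29 and TB 8 passed in EQ and EQ-Vary and had 5954 and 6321 counts in EQ-75%. The total of EC 14 was 13324 counts for EQ, 10248 for EQ-Vary and 1615760 for EQ-75%, where SGCE was at 624 CPM, MEST at 66.2 CPM and IGF2 at 0. With EC 14 the mean of SGCE over EC in EQ-75% was 51.8 CPM, and without it 36.8 CPM. TB 40 failed the limits in EQ-Vary with 137034 counts, and held 226 CPM of PEG10 there, against 224 CPM in EQ and 21.4 CPM in EQ-75%. Whether same-numbered libraries of these cells hold the same cDNA was not tested.

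For their mean level, 5 of 9 genes in EC and 6 of 8 in TB had a CV above the median of genes at the same level, where about 50.0% of all genes do. IGF2 stood at the 94.6th percentile and DLK1 at the 98.8th in TB, and MEST at the 30.2nd percentile in TB and the 77.3rd in EC. Without TB 19, its highest cell, DLK1 averaged 0.300 CPM in TB. That is under the minimum of 1 CPM for this ranking, so its spread was not ranked, which left 5 genes above the median. By the variance of log2 CPM over its trend 5 genes were also above in EC, but with CDKN1C and SGCE in place of PEG3 and IGF2.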
